A study of Mus musculus with 34 samples.

Results

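The phospholipase A2 and eicosanoid pathway genes were chosen by name alone. They were the protein-coding mouse genes of the Pla2g, Alox, Lpcat, Ptgs, Ptges and Ptger families together with Gpr132, Gpr31b, Lta4h, Ltc4s, Ptgir and Ptgfr, and 49 of 21757 protein-coding genes on the autosomes and sex chromosomes met this rule. By role they comprised 6 cytosolic, 1 calcium-independent, 11 secreted and 2 other phospholipases A2, 5 genes of the lysophospholipid acyltransferase family, 6 genes of prostaglandin synthesis, 10 lipoxygenase and leukotriene genes and 8 receptors. Open chromatin at these genes was read from ATAC-seq, in which a transposase inserts adapters into accessible DNA, in 34 libraries of hair follicle stem cells (HFSCs) that fell into 11 groups. The deposited files were lists of called peaks and held no read counts, so all results below are numbers, ranks or positions of peaks and not expression.

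Phospholipases A2 cut a fatty acid, often arachidonic acid, from membrane phospholipids and leave a lysophospholipid such as lysophosphatidylcholine. Cyclooxygenases turn arachidonic acid towards prostaglandins and lipoxygenases turn it towards hydroxy fatty acids and leukotrienes, which act through G-protein-coupled receptors, while lysophospholipid acyltransferases put a fatty acid back. In the epidermis the lipoxygenases encoded by Alox12b and Aloxe3 act on ceramides and are needed for the skin barrier, and apoptotic cells are known to release lysophosphatidylcholine through the calcium-independent phospholipase A2 encoded by Pla2g6.

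In vivo, HFSCs were sorted from wild-type mouse skin in late catagen (CatVII, n = 6) and at the end of the preceding growth phase (AnaVI, n = 2), and from CatVII skin of tamoxifen-treated mice labelled Rxra cKO (n = 3) or Rxra WT (n = 4). The cKO mice carried Rxra fl/fl and R26-YFP fl/+ with Sox9-creER+, so that the retinoid X receptor RXRα was deleted in Sox9-expressing cells. Their controls were, in the description of the ATAC-seq sort, Rxra +/+ with the same creER and reporter, whereas the general methods allow controls that lacked the creER or were Rxra fl/+ with it, and neither source says which held for each library. In culture, HFSC lines isolated in the second telogen (Rxra fl/fl or Rxra +/+, both with R26-YFP fl/fl and Sox9-creER+, given 4-hydroxytamoxifen and sorted for YFP) were exposed to cisplatin-killed, membrane-Tomato-labelled HFSCs that were wild type for Rxra (corpses; Rxra cKO, n = 3, and Rxra WT, n = 4), to such corpses after bromoenol lactone (BEL), which blocks calcium-independent phospholipases A2 (Rxra WT, n = 4), to a mixture of retinoic acid (RA), arachidonic acid (AA) and lysophosphatidylcholine (LPC; n = 2 of each genotype), or to medium (n = 2 of each genotype). BEL was given to the corpses and not to the HFSCs, and the corpses without it, called untreated here, carried vehicle by the study's methods. The lines were grown on fibroblast feeders and may be 1 line per genotype, and the lists hold no measure of RXRα, so the genotypes are those of the labels. DNA of engulfed corpses and of feeders cannot be told apart from DNA of the HFSCs in these lists.

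The libraries differed widely in size. The lists held between 4144 and 129876 peaks, with 63855 to 129876 peaks in the 11 corpse and BEL libraries and 4144 to 5740 in the 4 medium libraries, and each list ends where its own caller threshold of q = 0.05 fell. Promoters of the HFSC and basal keratinocyte marker list carried a peak for 10 to 11 of 11 genes in the Rxra WT and cKO skin libraries. The range was 1 to 10 genes in CatVII wild-type libraries, where only Itga6 had one in every library, and 3 to 11 in AnaVI libraries. It was 7 to 10 in Rxra WT corpse libraries, 10 in cKO corpse and BEL libraries and 0 to 2 in medium libraries. Cd34, a bulge marker, had no promoter peak in any culture library. Of markers of other cells, the macrophage gene Csf1r and the endothelial gene Pecam1 had a promoter peak in every corpse and BEL library, whereas Ptprc, Itgam, Cd207 and Cd3e had none in any of the 34. Adgre1 had one only among cKO skin libraries. The endothelial gene Cdh5 had one in every cKO corpse library and in no Rxra WT corpse or BEL library. The fibroblast genes Col1a1 and Pdgfra had one in every corpse, BEL and Rxra WT skin library and Col3a1 in none. Twist1 had one in every BEL library, and Thy1 in no BEL or Rxra WT corpse library. The melanocyte genes Pmel and Mitf had one in every corpse, BEL, Rxra WT skin and cKO skin library, and Tyr in none of the 34. Dct had one in every Rxra WT skin, cKO skin and cKO corpse library. The part of other cells in the peaks below was not tested. Stored peak names gave the 3 cKO skin libraries a day tag of 42, with which only Rxra WT 1 agreed among the controls (day 37 in Rxra WT 2 to 4), and gave the CatVII wild-type libraries day 37 and the AnaVI libraries day 33. They also marked libraries as phagocytic or non-phagocytic sorts within most groups. In skin, cKO 3 was marked phagocytic, cKO 1, cKO 2 and the 4 Rxra WT libraries non-phagocytic, and cKO 2 and cKO 3 carried the same mouse tag. The names of Rxra WT 2 to 4 carried no genotype and went on with the numbering of CatVII wild-type libraries 4 to 6. The number n may thus count fewer animals or cultures and p-values may measure a spread that is partly technical.

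Every gene had at least 1 called peak in its window, defined as the gene body with 50 kb upstream and 5 kb downstream, in at least 7 libraries. The window counts were highest for Lpcat2 (380 peaks over all libraries), which acylates lysophosphatidylcholine and lyso-platelet-activating factor, Aloxe3 (344) and Pla2g6 (309; chr15:79170418-79212631, mm39, minus strand), and lowest for Gpr31b (9 peaks in 7 libraries), whose human counterpart is a receptor for a 12-lipoxygenase product, Ptgfr (21 peaks in 8 libraries), the prostaglandin F receptor, and Alox15 (24 peaks in 17 libraries). At promoters, taken as 1 kb either side of an annotated transcript start, 12 genes had a peak in each of the 23 libraries with at least 40000 peaks (Pla2g6, Pla2g15, Lpcat1, Lpcat3, Lpcat4, Ptges2, Ptges3, Ptges3l, Aloxe3, Lta4h, Ltc4s and Ptger4), and 7 had none in any library (Pla2g2a, Pla2g4c, Pla2g4d, Pla2g12b, Lpcat2b, Alox5 and Gpr31b). The members lacking a promoter peak thus included the 5-lipoxygenase gene Alox5, while that of its partner Alox5ap had one in 22 libraries. Neighbouring members share peaks: windows of the Pla2g2 genes on chromosome 4, of Pla2g4d, Pla2g4e and Pla2g4f on chromosome 2 and of the Alox genes on chromosome 11 contain each other's starts.

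**Figure D1:**
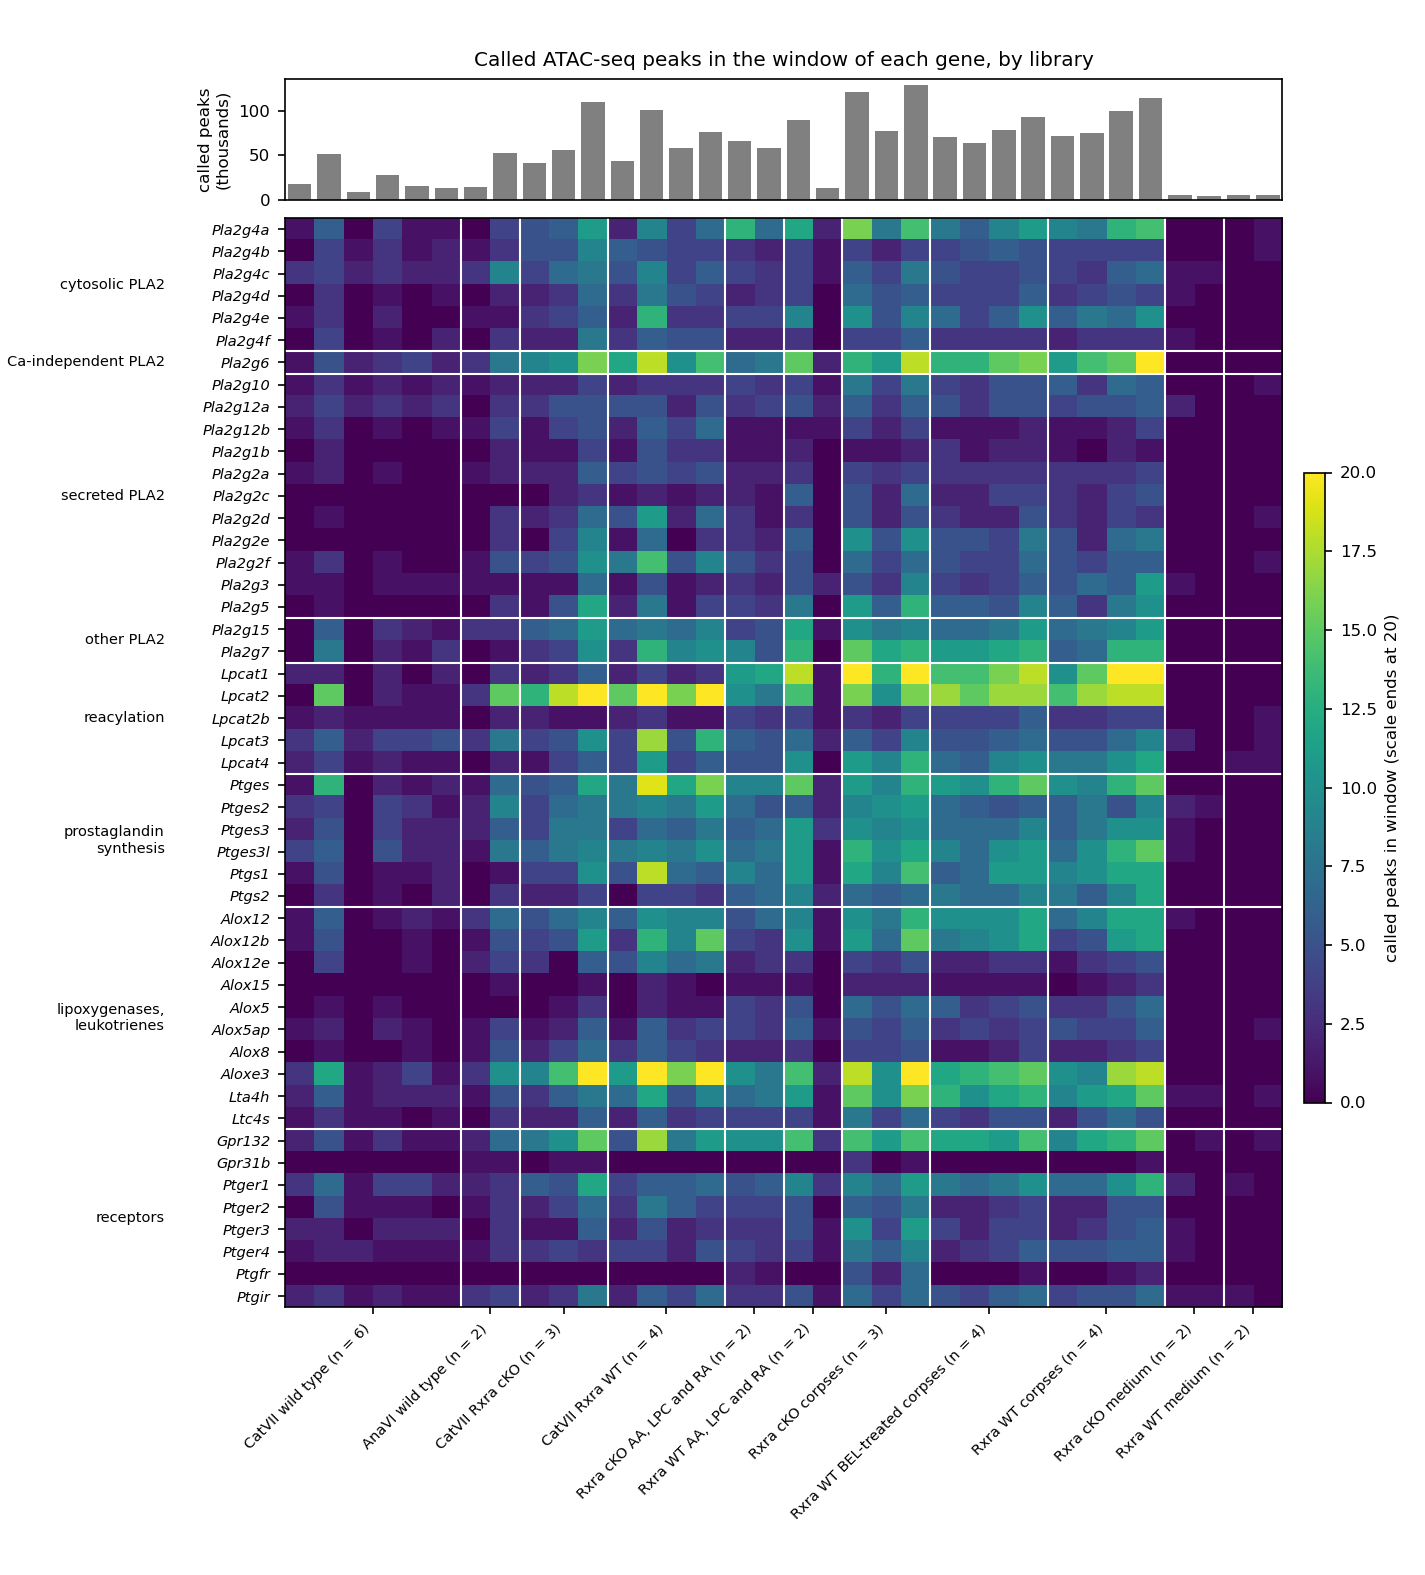
Called ATAC-seq peaks in the window of each of the 49 genes (rows, by role) in each of 34 libraries (columns, by group), with the number of called peaks of each library above. The colour scale ends at 20 peaks. The columns follow library size: the 4 medium libraries are nearly empty, and Ptgfr and Gpr31b are nearly empty across the other groups too.

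The genes of AA release and cyclooxygenation differed in how their called peaks were spread over skin and culture, in counts not adjusted for library size. Pla2g4a, the cytosolic phospholipase A2 that releases AA (chr1:149705369-149837053, minus strand), had 16, 8 and 14 called peaks in cKO corpse libraries, 8, 6, 9 and 11 in BEL libraries and 9, 8, 13 and 14 in Rxra WT corpse libraries, with 5, 6 and 11 in cKO skin and 2, 9, 4 and 7 in Rxra WT skin. Ptgs2, the inducible cyclooxygenase (chr1:149975194-149983978, plus strand), had 7, 6 and 7 called peaks in cKO corpse libraries, 8, 7, 7 and 9 in BEL libraries and 8, 6, 9 and 12 in Rxra WT corpse libraries, with 2, 2 and 4 in cKO skin and 0, 4, 4 and 3 in Rxra WT skin. The Ptgs2 values of the corpse and BEL libraries thus lay above every skin value, whereas those of Pla2g4a overlapped them. Pla2g6 had 13, 11 and 18 called peaks in cKO corpse libraries, 13, 13, 15 and 16 in BEL libraries and 11, 14, 15 and 21 in Rxra WT corpse libraries, with 9, 10 and 16 in cKO skin and 12, 18, 10 and 14 in Rxra WT skin, so that its counts in culture and skin overlapped. Ptgfr had called peaks only in culture, namely 5, 2 and 7 in cKO corpse libraries, 0, 0, 0 and 1 in BEL libraries, 0, 0, 1 and 2 in Rxra WT corpse libraries and 2 and 1 in cKO libraries given AA, LPC and RA.

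To set libraries of different size side by side, the same number of strongest peaks was taken from every library of a comparison, as many as its smallest library held on the autosomes and sex chromosomes (listed peaks). A gene was called higher or lower where every library of one group exceeded every library of the other, either in listed peaks in the window or in promoter rank, the percentile of the best promoter peak in its list (100 for the strongest peak, 0 for no listed peak). A region was called specific to a group where all its libraries had a listed peak and the other group had none. The regions counted as tested were merged peaks present in at least as many libraries as the smaller group held, which are those that could meet this call. The share of all genes or regions meeting each call is given beside the members' count as the background. P-values are two-sided exact permutation p-values of the difference in means, adjusted by Benjamini-Hochberg over all genes tested, and no member passed an adjusted p of 0.05 in any comparison, so calls are descriptions of groups that did not overlap. The smallest p possible was 0.0357 for 6 against 2 libraries, 0.0286 for 3 or 4 against 4, and 0.0667 for 4 against 2, and the smallest adjusted p over all genes was 0.0645.

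CatVII was compared with AnaVI to see what differed at these genes between late catagen, when HFSCs border dying cells, and the growth phase before it. In lists of 8223 peaks, 1 of 39 members tested had more listed peaks in every CatVII library (4.93% of all genes) and 3 had fewer (5.27% of all genes). The clearest of them was Alox12, the platelet-type 12-lipoxygenase, which had 0, 1, 0, 1, 1 and 0 listed peaks in CatVII libraries and 3 and 2 in AnaVI libraries. The groups did not overlap, with a difference of -2 peaks (exact p = 0.0357, adjusted p = 0.399). This call was lost under 3 of 14 alternative settings, namely all called peaks, shorter lists and a stricter q. With all called peaks Alox12 had 1, 6, 0, 1, 2 and 1 in CatVII libraries and 3 and 7 in AnaVI libraries. These counts overlapped. Pla2g2a and Pla2g2f, secreted phospholipases A2 whose windows overlap, had 0 listed peaks in all 6 CatVII libraries and 1 in both AnaVI libraries. Pla2g12a, another secreted form, went the other way with 1, 2, 2, 1, 1 and 3 peaks in CatVII libraries and 0 and 0 in AnaVI libraries, a difference of 1.67 (exact p = 0.107, adjusted p = 0.640). It lies on chromosome 3, and its call and those of Pla2g2a and Pla2g2f were also lost with all called peaks. Chromosomes 1 to 3 carried 22.7 to 30.9% of the called peaks of CatVII libraries and 21.0 and 21.1% of those of AnaVI libraries. The part of this unevenness in the calls was not tested. No promoter rank of 14 members tested was higher in every CatVII library (11.0% of all genes) or lower in every one (5.99% of all genes). The median difference in rank was 8.30 over all genes tested and 4.62 over the members, so ranks tended to be higher in CatVII across promoters. The share of genes with a listed promoter peak was also larger in every CatVII library than in either AnaVI library.

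Among the members that overlapped, the promoter of Lpcat3, an acyltransferase for lysophosphatidylcholine, had ranks of 75.4, 88.0, 25.4, 86.6, 64.6 and 96.4 in CatVII libraries and 0 and 48.3 in AnaVI libraries. Only 1 CatVII value lay below the higher AnaVI value, and the difference of 48.6 had an exact p of 0.0714. For Ptger4, the prostaglandin E2 receptor EP4, the ranks were 43.1, 85.1, 83.6, 84.1, 74.4 and 74.2 in CatVII libraries and 53.8 and 56.8 in AnaVI libraries, and they overlapped through CatVII 1 alone. The differences of Lpcat3 and Ptger4 had the sign of the median over all genes, and whether they are particular to these genes was not tested. Pla2g6 had 0, 0, 2, 1, 3 and 0 listed peaks in CatVII libraries and 1 and 0 in AnaVI libraries. In Aloxe3 there were 1, 1, 1, 1, 2 and 0 in CatVII libraries and 3 and 1 in AnaVI libraries. Ptges, the inducible prostaglandin E synthase, had 0, 0, 0, 0, 1 and 1 in CatVII libraries and 1 and 2 in AnaVI libraries. All 3 overlapped, and Ptgs2 had no listed peak in either group. At this list length most members thus had 0 to 3 listed peaks, and smaller differences were not detectable. Of 54 other genes of the pathway (lysophospholipases, PNPLA lipases, lysophosphatidic acid and leukotriene receptors, prostaglandin dehydrogenases and the like), 3 of 46 tested had more peaks in every CatVII library and 4 had fewer.

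Of 38 regions at members, 1 was specific to CatVII (4.92% of all regions) and 4 to AnaVI (9.55%). The strongest was an AnaVI region and stood 3.88 kb upstream of Alox12, between genes (chr11:70149976-70150281, mm39), at ranks of 95.7 and 88.5 in the AnaVI libraries, and it was called below the list in 2 of 6 CatVII libraries. The other AnaVI regions lay in an intron of Sptbn5 beside Pla2g4b (chr2:119874878-119875168), between Pla2g5 and Pla2g2d in the windows of Pla2g2a and Pla2g2f (chr4:138519908-138520261), and in an exon of C1s2 upstream of Lpcat3 (chr6:124607780-124608123, where only 62.2% of 25-base words occur once in the genome). The CatVII region, at Pla2g12a, was the promoter of Gar1 (chr3:129624428-129625329). The sequence around the Alox12 summit is shown because it was the strongest of the 5 and lies at the called lipoxygenase gene. Capitals mark 2 matches to the AP-1 motif TGANTCA and, on the minus strand, 1 to the GATA motif AGATAA (chr11:70149999-70150199, mm39, plus strand, 5′ to 3′).
Alox12 region: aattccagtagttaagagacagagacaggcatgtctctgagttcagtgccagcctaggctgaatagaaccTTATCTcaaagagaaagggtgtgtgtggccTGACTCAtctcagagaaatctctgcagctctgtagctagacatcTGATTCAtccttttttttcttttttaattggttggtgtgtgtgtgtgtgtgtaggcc
The AP-1 motif occurred in 3 of the 5 regions and in 15.7% of all 22963 regions of this comparison cut to 201 bases, and the GATA motif in 3 of 5 and in 7.70%, counting both strands.

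The genotype comparison in CatVII skin asked what differs at these genes without RXRα in the stem cells. In lists of 41317 peaks, 0 of 48 members had more listed peaks in every cKO library (1.10% of all genes) and 4 had fewer (3.64%). Alox12e, the epidermal-type 12-lipoxygenase of the mouse, had 3, 0 and 1 listed peaks in cKO libraries and 5, 4, 6 and 5 in Rxra WT libraries, a difference of -3.67 (exact p = 0.0286, adjusted p = 0.760). The groups did not overlap, and Rxra WT 1, the control with the day tag of the cKO mice, had 5. Ptges2, a membrane-associated prostaglandin E synthase, had 4, 3 and 5 in cKO libraries and 8, 6, 6 and 7 in Rxra WT libraries (-2.75). Ptges had 5, 5 and 5 in cKO libraries and 7, 8, 7 and 6 in Rxra WT libraries (-2, exact p = 0.0571). In Pla2g4f, a cytosolic phospholipase A2, the counts were 2, 2 and 2 in cKO libraries and 3, 3, 3 and 3 in Rxra WT libraries (-1). The calls of Ptges, Ptges2 and Pla2g4f were lost without cKO 1, the smallest library, which set the list length. These genes lie on chromosome 2. Chromosomes 1 to 3 carried 28.6, 21.5 and 24.3% of the called peaks of cKO 1 to 3 and 19.7 to 22.4% of those of Rxra WT libraries. The part of this unevenness in the calls was not tested. The day tag and the genotype cannot be told apart beyond Rxra WT 1, nor can the genotype and the separate naming of Rxra WT 2 to 4.

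Promoter ranks were higher in every cKO library for 0 of 33 members (2.79% of all genes) and lower for 1 (4.54%). This was Pla2g15, the lysosomal phospholipase A2, with ranks of 83.7, 70.8 and 88.3 in cKO libraries and 92.6, 88.9, 89.1 and 94.0 in Rxra WT libraries, a difference of -10.2 (exact p = 0.0286, adjusted p = 0.697). The gap between the groups was small, since cKO 3 and Rxra WT 2 were 88.3 and 88.9. For the cyclooxygenases the groups overlapped. Ptgs1, the constitutive form, had 4, 0 and 3 listed peaks in cKO libraries and 5, 6, 5 and 4 in Rxra WT libraries. Ptgs2 had 2, 2 and 2 in cKO libraries and 0, 1, 2 and 0 in Rxra WT libraries. The promoter of Ptgs2 had ranks of 23.5, 42.6 and 46.7 in cKO libraries and 0, 41.7, 0 and 0 in Rxra WT libraries, which overlapped. Among all called peaks its ranks in Rxra WT libraries were 0, 76.2, 12.2 and 15.0. A called promoter peak was thus missing only in Rxra WT 1, and those of Rxra WT 3 and 4 lay below the list. At Pla2g6 the counts were 9, 7 and 9 in cKO libraries and 11, 8, 6 and 9 in Rxra WT libraries. Pla2g4a had 5, 3 and 5 in cKO libraries and 2, 4, 3 and 3 in Rxra WT libraries. Both phospholipases overlapped, as did Lpcat3, with 4, 5 and 5 in cKO libraries and 4, 5, 5 and 5 in Rxra WT libraries. The barrier lipoxygenase gene Aloxe3 had 9, 11 and 12 peaks in cKO libraries and 10, 12, 9 and 12 in Rxra WT libraries. Alox12b had 4, 4 and 5 in cKO libraries and 3, 5, 5 and 8 in Rxra WT libraries, and both overlapped. Of the other pathway genes, 0 of 50 had more peaks in every cKO library and 3 had fewer.

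Of 167 regions at members in this comparison, 1 was specific to cKO (0.665% of all regions) and 3 to Rxra WT (1.85%). The cKO region lay 13.0 kb upstream of Gpr132, a receptor linked to lysophospholipids and oxidised fatty acids (chr12:112844674-112845267), at ranks of 23.9 to 34.9 and with a peak called below the list in 2 of 4 Rxra WT libraries. The window of Gpr132 held 8, 7 and 5 listed peaks in cKO libraries and 5, 6, 5 and 5 in Rxra WT libraries. In 2 of the 3 Rxra WT regions no cKO library had any called peak. They lay at the start of Mmp2, in the window of Lpcat2 (chr8:93566424-93566994), and between Pla2g2d and Pla2g5, in the windows of Pla2g2a, Pla2g2d and Pla2g2f (chr4:138511684-138512764). The remaining one was in an exon of Ptges2 (chr2:32294667-32295143). The sequence between the secreted phospholipase genes is shown because all 4 Rxra WT libraries had the peak and cKO libraries had none at any strength. Capitals mark the 1 match to TGANTCA (chr4:138511831-138512031, mm39, plus strand).
Pla2g2a, Pla2g2d and Pla2g2f region: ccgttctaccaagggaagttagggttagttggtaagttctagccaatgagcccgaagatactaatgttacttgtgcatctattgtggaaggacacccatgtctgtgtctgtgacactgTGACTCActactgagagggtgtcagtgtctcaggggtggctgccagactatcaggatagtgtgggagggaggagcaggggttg
The motif was found in 1 of the 4 regions at members and in 19.0% of all regions of this comparison.

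The corpse experiment set Rxra WT HFSCs given corpses against those in medium. The 2 medium libraries were so small that only 4812 peaks per library could be compared, and chromosomes 1 to 3, which hold 13 of the 49 members, carried 20.8 to 21.6% of the called peaks of corpse libraries and 33.7 and 39.4% of those of medium libraries. The share of listed peaks at members was 0.333, 0.249, 0.312 and 0.249% in corpse libraries and 0.0623 and 0.208% in medium libraries, that is 16, 12, 15 and 12 peaks against 3 and 10. The groups did not overlap (0.286 ± 0.0428% against 0.135 ± 0.103%, SD, n = 4 and 2), but the difference of 0.151 percentage points shrank to 0.00520 with a window of 10 kb. The median difference in listed peaks was 0.25 over the members and 0.25 over all genes tested. Whether the share is particular to the members was not tested. No member of 25 had more listed peaks in every corpse library (12.9% of all genes) and 1 had fewer (4.88%), which was Lpcat4 with 0, 0, 0 and 0 peaks in corpse libraries and 1 and 1 in medium libraries (exact p = 0.0667, adjusted p = 0.418). With all called peaks kept, the sign of the Lpcat4 difference turned to 8.5 more peaks with corpses.

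No promoter rank of 5 members was higher in every corpse library (13.7% of all genes) or lower in every one (4.01%). Lpcat3 had 1, 1, 1 and 1 listed peaks in corpse libraries and 0 and 1 in medium libraries, with promoter ranks of 61.1, 0, 61.2 and 54.9 against 0 and 33.5. Pla2g6, Ptgs1, Alox12b, Ptger4 and Gpr31b had no listed peak in either group, and Pla2g4a had one only in medium 4, so that a change at these genes was not detectable at this depth. Of 17 regions at members, 1 was specific to corpse libraries (20.7% of all regions) and 0 to medium libraries (11.4%). It was the promoter of Rrn3 in the window of Pla2g10, a secreted phospholipase A2 (chr16:13598249-13598896). Among the other pathway genes, 4 of 30 had more listed peaks in every corpse library and 0 had fewer.

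The Rxra WT libraries given AA, LPC and RA had 13 and 9 listed peaks at members in lists of 4111 peaks, the length of the smallest library of all, whereas the medium libraries had 2 and 8. The cKO libraries given the same lipids had 16 and 17 and the cKO medium libraries 17 and 5. The lipid-treated libraries exceeded medium in the Rxra WT cells and overlapped it in the cKO cells, and the difference between the genotypes was not tested. Stored peak names marked both lipid-treated Rxra WT libraries as phagocytic sorts and the medium and lipid-treated cKO libraries as non-phagocytic ones, so in Rxra WT cells the lipids and the sort cannot be told apart.

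The cKO corpse libraries were compared with the Rxra WT corpse libraries, both given corpses that were wild type for Rxra. In lists of 72047 peaks the share at members was 0.319, 0.325 and 0.337% in cKO libraries and 0.323, 0.340, 0.354 and 0.350% in Rxra WT libraries, which overlapped. Of 48 members, 6 had more listed peaks in every cKO library (3.67% of all genes) and 3 had fewer (5.05%). The 6 included 3 prostaglandin receptors, and the 3 were Lpcat2 and 2 cytosolic phospholipases A2.

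Of the receptors, Ptger2, the prostaglandin E2 receptor EP2, had 4, 5 and 6 listed peaks in cKO libraries and 2, 2, 3 and 2 in Rxra WT libraries (5 ± 1 against 2.25 ± 0.5, SD; difference 2.75, exact p = 0.0286, adjusted p = 0.408). Ptger4 had 6, 6 and 9 in cKO libraries and 5, 5, 4 and 4 in Rxra WT libraries (2.50). Ptgfr had 2, 1 and 3 in cKO libraries and 0, 0, 0 and 0 in Rxra WT libraries (2). These 3 receptor genes were called because every cKO value stood above every Rxra WT value. The other receptors, Ptger1, Ptger3, Ptgir, Gpr132 and Gpr31b, were not called by count, and the receptors were not tested as a set. For Ptgfr, 2 of the 4 Rxra WT libraries had peaks called below the list (1 and 2 peaks). When all called peaks were used the calls of all 3 receptors were lost, and of the 9 count calls of this comparison only 1, at Pla2g4f, was left. With lists 0.5 times as long the calls of Ptger2 and Ptger4 were lost and the Ptger4 difference turned to -0.25. The Ptger4 call was also lost with only peaks of −log10 q of at least 3 and with a window of 10 kb. The promoter of Ptger4 went the other way without separating, with ranks of 76.4, 89.0 and 83.1 in cKO libraries and 92.7, 92.8, 90 and 87.3 in Rxra WT libraries.

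Of the enzymes with more peaks, Pla2g7, which encodes the secreted platelet-activating factor acetylhydrolase, had 9, 10 and 10 listed peaks in cKO libraries and 6, 7, 8 and 8 in Rxra WT libraries (2.42). Alox5, which starts leukotriene synthesis, had 4, 5 and 4 in cKO libraries and 3, 2, 3 and 2 in Rxra WT libraries (1.83). Pla2g4f had 4, 4 and 4 in cKO libraries and 2, 3, 3 and 3 in Rxra WT libraries (1.25). In CatVII skin Pla2g4f had fewer peaks in every cKO library, but with lists 0.5 times as long the difference with corpses was -0.25, of the same sign as in skin, and the skin call was lost under 6 of 13 alternatives.

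On the lower side, Lpcat2 stood furthest apart, with 9, 8 and 11 listed peaks in cKO libraries and 14, 17, 15 and 14 in Rxra WT libraries (9.33 ± 1.53 against 15.0 ± 1.41, SD; difference -5.67, exact p = 0.0286, adjusted p = 0.408). Pla2g4e had 3, 4 and 3 in cKO libraries and 6, 7, 5 and 5 in Rxra WT libraries (-2.42). Pla2g4b had 2, 2 and 2 in cKO libraries and 4, 4, 4 and 3 in Rxra WT libraries (-1.75). The calls of Pla2g4b and Pla2g4e were lost without Rxra WT corpses 1. The Lpcat2 counts in CatVII skin overlapped between the genotypes. Ptgs2 had 5, 3 and 3 listed peaks in cKO libraries and 8, 6, 5 and 6 in Rxra WT libraries, touching at 5. Pla2g4a had 7, 7 and 8 in cKO libraries and 9, 8, 10 and 11 in Rxra WT libraries, touching at 8. In Ptgs1 and Pla2g6 the groups overlapped more widely, with 8 to 11 against 9 for Ptgs1 and 11 to 12 against 11 to 14 for Pla2g6. Of the other pathway genes, 0 of 53 had more listed peaks in every cKO library and 2 had fewer.

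**Figure D2:**
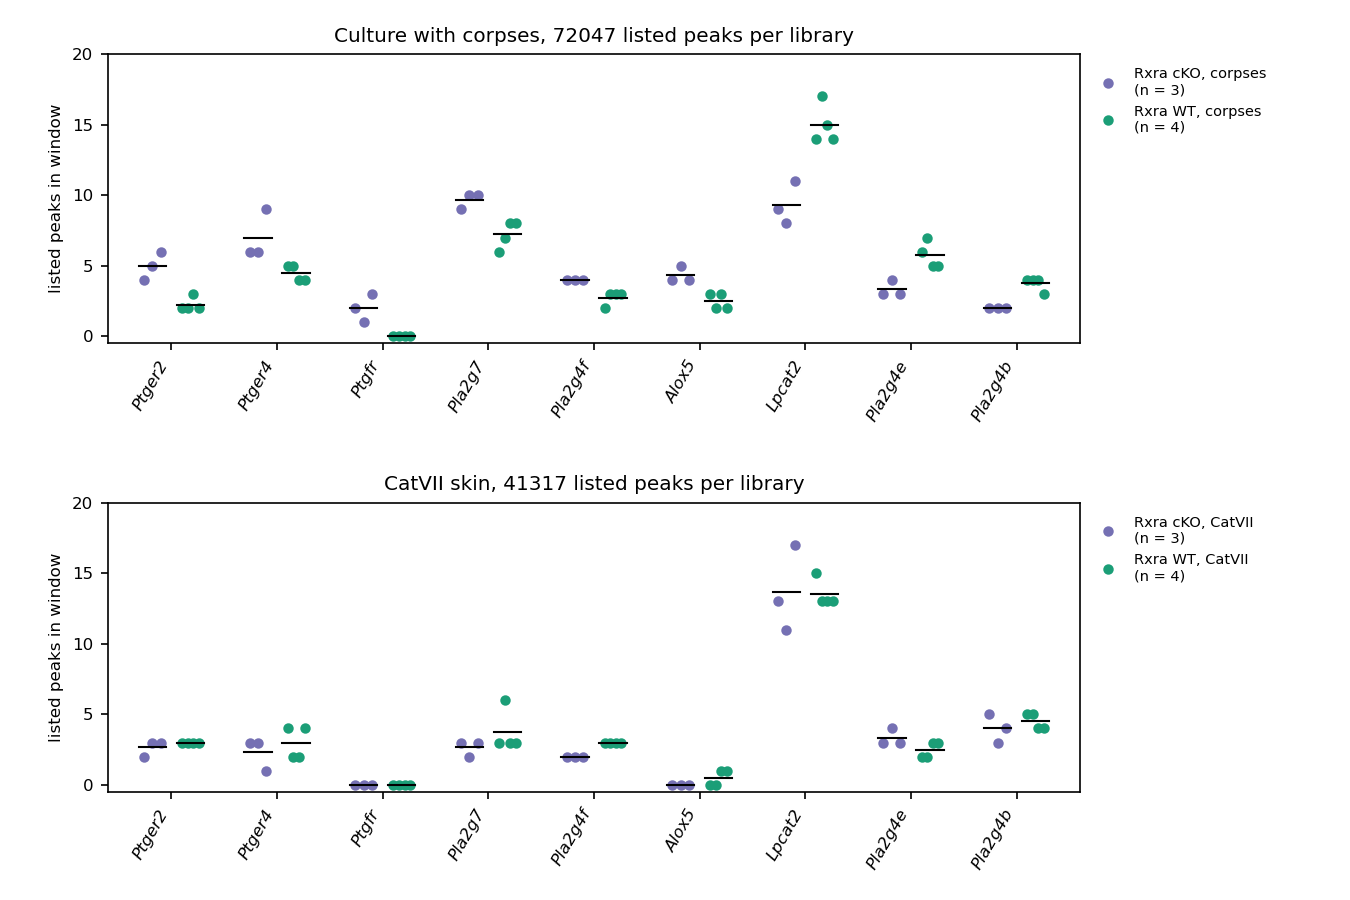
Listed peaks in the windows of the 9 genes called between the genotypes with corpses. Upper panel: cKO (purple, left of each pair) and Rxra WT (green) culture libraries with corpses; lower panel: the same genes in CatVII skin; points are libraries and bars their means. With corpses the groups separate at all 9 genes by choice of the genes, with Lpcat2 at 8 to 11 against 14 to 17, whereas in skin only Pla2g4f separates, at 2 against 3.

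Promoter ranks were higher in every cKO corpse library for 1 of 25 members (5.10% of all genes) and lower for 2 (6.44%). Pla2g6 was the higher one, with ranks of 91.7, 90.5 and 83.5 in cKO libraries and 58.4, 69.3, 78.9 and 77.3 in Rxra WT libraries (88.5 ± 4.42 against 71.0 ± 9.38, SD; difference 17.6, exact p = 0.0571, adjusted p = 0.495). In skin the ranks of the same promoter overlapped, with 86.7, 66.0 and 93.0 in cKO libraries and 92.1, 78.0, 86.6 and 86.4 in Rxra WT libraries. Alox5ap, which presents AA to 5-lipoxygenase, had ranks of 82.6, 79.3 and 85.1 in cKO libraries and 99.5, 92.1, 96.4 and 96.1 in Rxra WT libraries (-13.7, exact p = 0.0286, adjusted p = 0.429). Lpcat4 had 67.9, 68.7 and 59.0 in cKO libraries and 73.0, 72.4, 69.0 and 79.6 in Rxra WT libraries (-8.37). The calls of Pla2g6 and Alox5ap held under each of 12 alternative settings. Most of these leave out a library or pair libraries by replicate number, which cannot undo a call at an unchanged list length.

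Of 256 regions at members with corpses, 7 were specific to cKO (3.63% of all regions) and 9 to Rxra WT (1.79%). The cKO regions stood 33.8 and 1.81 kb upstream of Ptger2 (chr14:45191724-45192211 and chr14:45223733-45223948), within Ptger4 (chr15:5249952-5250324), within Pla2g4f in a window shared with Pla2g4d (chr2:120141002-120141141), in an exon of Ptgfr (chr3:151507266-151507454), upstream of Pla2g2c (chr4:138429868-138430320) and in an intron of Alox5 (chr6:116415775-116416213). The Alox5 and Pla2g4f regions had no called peak in any Rxra WT library, and the Alox5 region was the stronger of them, with ranks of 57.9 to 76.6 against 3.44 to 21.7. The Rxra WT regions included 2 introns of Lpcat2 (chr8:93593826-93594239 and chr8:93623242-93623519), an intron of Ttc33 beyond the end of Ptger4 (chr15:5231599-5232075), introns of Pla2g4a, Lpcat1 and Mapkbp1 (near Pla2g4b), and stretches between genes near Pla2g3, Gpr132 and Pla2g2e. Of these, the second Lpcat2 region and the Ttc33 region had no called peak in any cKO library. Ptger4 thus had a region of each kind in its window. Rxra WT corpses 1 and 2 held 72225 and 75026 called peaks, so that few of their peaks lay below the list and a missing peak there says little beyond its absence from the list.

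The 3 regions printed next are those with the highest best rank in each direction among regions with no called peak in the other group, together with the one beside Ptger4. Capitals mark TGANTCA (AP-1), AACAAT (SOX) and GGAATG (TEAD) on either strand; the sequences run 5′ to 3′ on the plus strand of mm39 and cover chr6:116415882-116416082 for Alox5, chr8:93623345-93623545 for Lpcat2 and chr15:5231724-5231924 for Ptger4.
Alox5 region, open in cKO: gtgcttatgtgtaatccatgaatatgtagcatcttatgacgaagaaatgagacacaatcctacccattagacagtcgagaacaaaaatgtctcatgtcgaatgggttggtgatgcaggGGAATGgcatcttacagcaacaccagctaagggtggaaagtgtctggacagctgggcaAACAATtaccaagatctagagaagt
Lpcat2 region, open in Rxra WT: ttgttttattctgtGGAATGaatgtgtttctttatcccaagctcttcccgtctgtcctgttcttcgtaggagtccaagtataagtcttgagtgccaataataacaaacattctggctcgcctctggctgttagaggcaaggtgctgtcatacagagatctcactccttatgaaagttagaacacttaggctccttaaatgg
Ptger4 region, open in Rxra WT: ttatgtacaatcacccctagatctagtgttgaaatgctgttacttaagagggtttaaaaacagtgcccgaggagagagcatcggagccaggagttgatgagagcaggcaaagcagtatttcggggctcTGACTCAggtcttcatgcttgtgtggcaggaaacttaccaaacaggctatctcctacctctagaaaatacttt
Alox5 and Lpcat2 shared the TEAD letters, which stood in 3 of the 16 regions and in 17.6% of all regions of this comparison, while AP-1 stood in 6 of 16 against 37.0% and the nuclear receptor half-site AGGTCA in 1 of 16 against 11.5%.

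**Figure D3:**
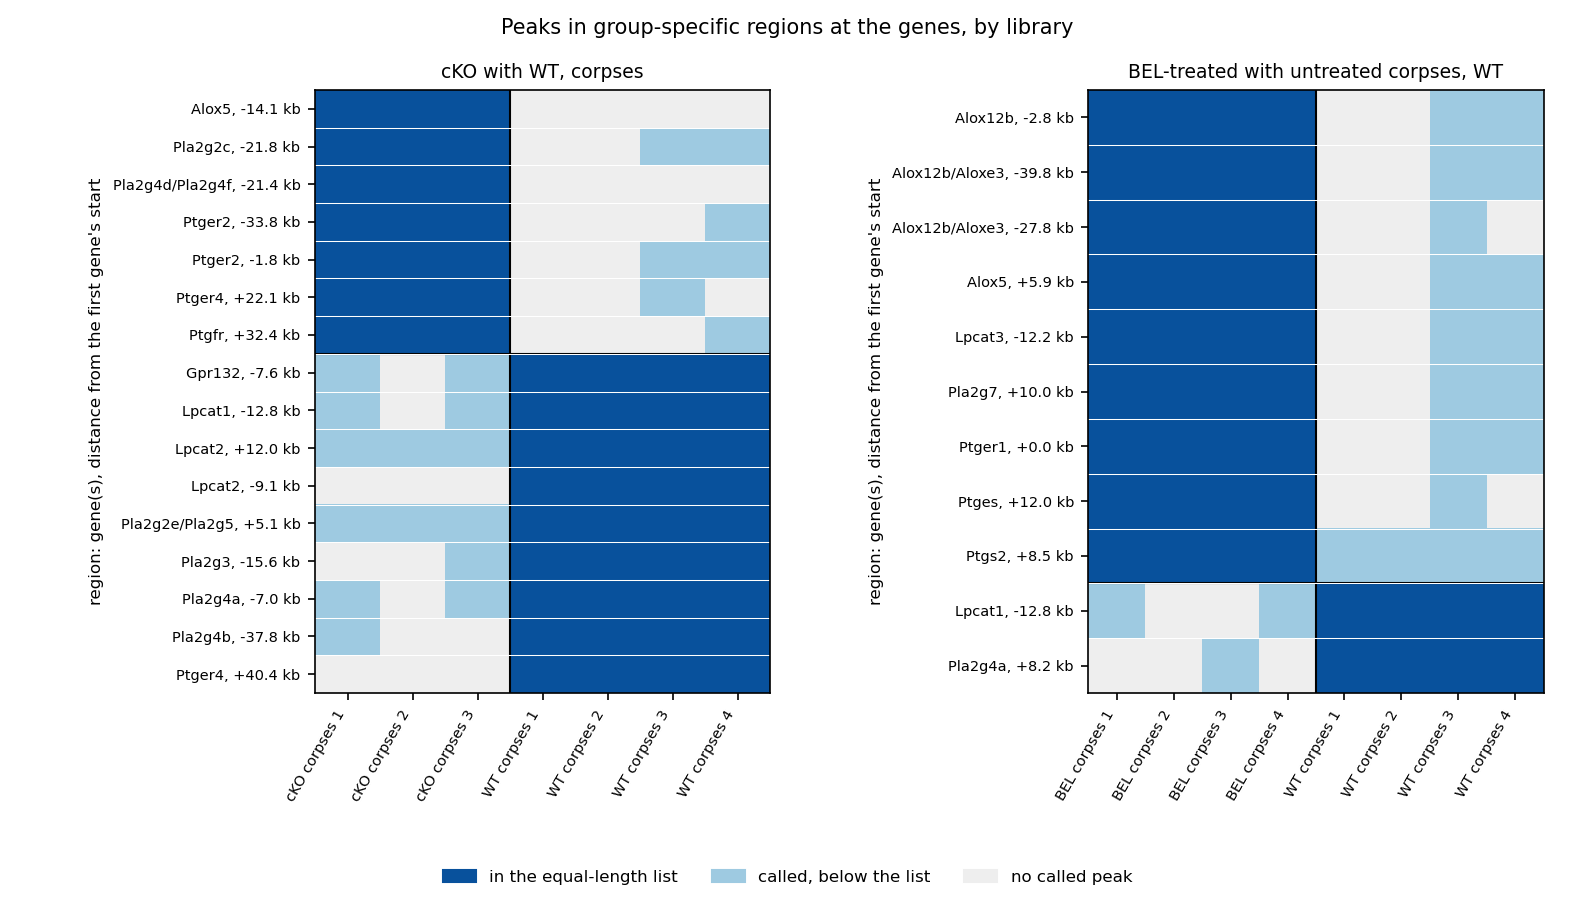
State of each group-specific region at the genes in each library, for cKO with Rxra WT corpse libraries (left) and for BEL-treated with untreated corpses (right). Rows are regions named by gene and distance of the summit from its start in kb, columns are libraries; dark blue is a peak in the equal-length list, light blue a called peak below it and grey no called peak. The dark blocks are fixed by how regions were chosen, and 4 of the 16 regions at left and 0 of the 11 at right had no called peak throughout the other group.

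BEL-treated corpses were compared with untreated corpses, both given to Rxra WT HFSCs, to see whether phospholipase A2 activity of the dying cells bears on these genes. This comparison used the same Rxra WT corpse libraries as the genotype comparison. In lists of 63739 peaks the share at members was 0.373, 0.378, 0.362 and 0.389% with BEL and 0.331, 0.337, 0.369 and 0.344% without, a difference of 0.0306 percentage points with overlapping groups. Promoter ranks were higher in every BEL library for 12 of 27 members, close to the 41.9% of all genes that were, and lower for 1 (2.37% of all genes). The median difference in rank was 12.2 over the members and 9.47 over all genes tested, so higher ranks with BEL were general to promoters in these lists. The shortest called peak was 144, 144, 144 and 145 bp with BEL and 60, 80, 104 and 76 bp without, which moved with the treatment, and its part in the ranks was not tested.

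Among the 12, the enzymes of AA release and use were Pla2g4a, with ranks of 71.9, 69.0, 68.9 and 66.5 with BEL and 28.5, 64.8, 45.8 and 55.4 without (20.5), and Ptgs2, with 95.2, 94.9, 91.2 and 87.6 with BEL and 30.7, 79.3, 74.8 and 66.2 without (29.5). Pla2g6 had 85.9, 78.6, 81.0 and 87.1 with BEL and 53.0, 65.3, 76.2 and 74.4 without (83.1 ± 4.01 against 67.2 ± 10.6, SD; difference 15.9). Corpses 1 held the lowest untreated value in all 3 genes. Pla2g12a stood furthest apart, with 74.8, 66.2, 67.8 and 75.2 with BEL and 18.5, 24, 32.7 and 14.4 without (48.6). Ltc4s, the leukotriene C4 synthase, had 90.6, 88.1, 83.6 and 87.8 with BEL and 26.5, 46.0, 63.9 and 42.3 without (42.9). Ptges3, an HSP90 co-chaperone with prostaglandin E synthase activity, had 91.8, 95.5, 93.4 and 90.4 with BEL and 42.5, 60.7, 80.3 and 65.3 without (30.6). Each of the 12 differences had an exact p of 0.0286, the smallest that 4 against 4 libraries can give, and an adjusted p of 0.0645.

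Of the acyltransferase family, 4 of 5 members were higher in every BEL library, where 41.9% of all genes were, and the calls of Lpcat3 and Lpcat4 were lost when peaks were ranked by fold enrichment, as were those of Ptgs2, Pla2g6 and Ptger1. Lpcat2 had ranks of 76.4, 88.3, 85.2 and 88.3 with BEL and 52.8, 34.2, 59.4 and 62.7 without (32.3). Lpcat1 had 86.1, 89.3, 89.0 and 85.4 with BEL and 62.8, 56.8, 69.4 and 57.7 without (25.8). Lpcat4 had 93.1, 89.7, 95.2 and 92.4 with BEL and 69.5, 68.8, 65.0 and 76.9 without (22.5). The gap was narrow for the remaining one. Lpcat3, near the top of the list in both groups, had 97.9, 98.3, 99.3 and 99.3 with BEL and 97.1, 89.7, 97.1 and 96.6 without (3.59). The fifth member, Lpcat2b, had no promoter peak in any library. The promoter of Ptger1, the prostaglandin E2 receptor EP1, had ranks of 11.0, 5.47, 5.94 and 6.24 with BEL and 0 in all 4 untreated libraries (7.16). Ptges overlapped, with 82.1, 89.4, 76.3 and 82.6 with BEL and 73.9, 79.3, 72.8 and 58.9 without. The calls of Pla2g4a, Ptges3, Lpcat1, Pla2g12a and Lpcat2 held under each of 13 alternative settings. Most of these leave out a library or pair libraries by replicate number, which cannot undo a call at an unchanged list length.

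Alox5ap was the single member whose promoter rank was lower in every BEL library, with 81.4, 73.4, 80.1 and 82.4 with BEL and 99.4, 91.1, 95.9 and 95.6 without (79.3 ± 4.05 against 95.5 ± 3.43, SD; difference -16.2, exact p = 0.0286, adjusted p = 0.0645). It was lower in every cKO corpse library too, against the same Rxra WT corpse libraries, so the 2 results are not independent. The call with BEL was lost when peaks were ranked by fold enrichment. In Rxra WT corpses 1 its best promoter peak was an intronic one (chr5:149216230-149216377) close to a transcript start inside the gene and not at the first exon. The sequence is shown because this peak held the highest rank of Alox5ap in the comparison, 99.4 in that library. Capitals mark TGANTCA (chr5:149216216-149216416, mm39, plus strand).
Alox5ap promoter peak: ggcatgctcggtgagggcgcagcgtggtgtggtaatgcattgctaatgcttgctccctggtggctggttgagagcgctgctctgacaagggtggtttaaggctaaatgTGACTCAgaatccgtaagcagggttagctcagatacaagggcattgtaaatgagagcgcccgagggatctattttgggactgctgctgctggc

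**Figure D4:**
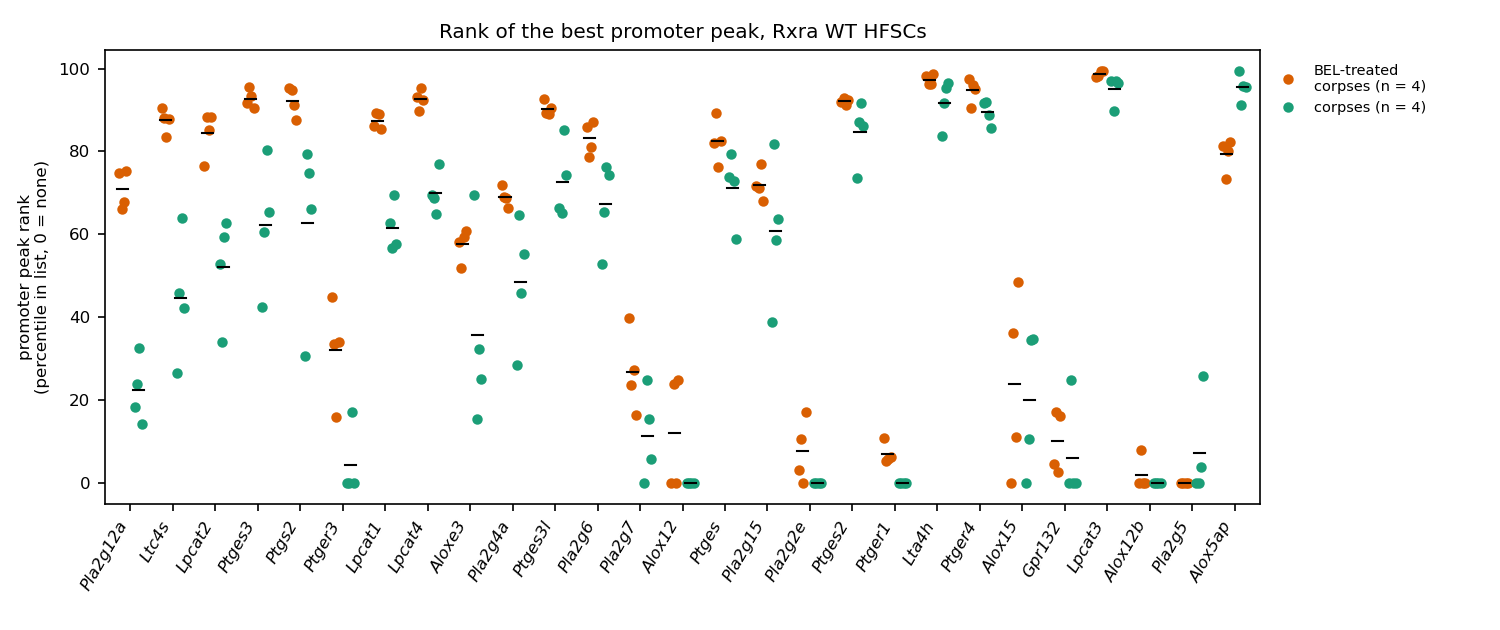
Promoter rank (percentile of the best promoter peak in lists of equal length, 0 for no listed peak) of the 27 members tested in Rxra WT HFSCs given BEL-treated corpses (orange, left of each pair) or untreated corpses (green), 4 libraries each, with means as bars and genes ordered by the difference. The orange points stand above all green points for 12 genes, with Pla2g12a at 66.2 to 75.2 against 14.4 to 32.7, and below all green points only for Alox5ap.

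In peak counts, 2 of 47 members had more listed peaks in every BEL library (3.78% of all genes) and 1 had fewer (3.43%). Alox12b had 6, 9, 7 and 9 with BEL and 3, 4, 5 and 5 without (3.50, exact p = 0.0286, adjusted p = 0.396). Pla2g7 had 10, 11, 10 and 9 with BEL and 6, 5, 8 and 7 without (3.50). The Alox12b call was lost under 5 of 14 alternatives and the Pla2g7 call under 3 of 14. Both were lost with lists 0.5 times as long and with a window of 10 kb. Pla2g4a, whose promoter ranked higher with BEL, had fewer peaks in its window, with 7, 6, 6 and 7 with BEL and 9, 8, 9 and 9 without (-2.25). This call was lost without BEL 2, and the difference turned to 1.0 with lists 0.5 times as long. Ptgs2 overlapped, with 8, 7, 5 and 8 with BEL and 6, 4, 4 and 6 without. Aloxe3 had 10, 13, 11 and 12 with BEL and 9, 7, 10 and 10 without, touching at 10. Ptgs1 had 6, 7, 8 and 8 with BEL and 9, 8, 9 and 9 without, touching at 8, and the Pla2g6 counts lay within 12 to 14 with BEL and 11 to 14 without. When all called peaks were used in place of equal lists, none of the 3 count calls was left. Of the other pathway genes, 1 of 51 had more peaks in every BEL library and 1 had fewer, while 16 of 38 had a higher promoter rank.

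Of 233 regions at members, 9 were specific to BEL (2.26% of all regions) and 2 to untreated corpses (0.729%). The BEL regions included introns of Alox12b (chr11:69044787-69045302), Pla2g7 (chr17:43903122-43903789), Ptges (chr2:30807545-30808313) and Lpcat3 (chr6:124665976-124666336), the promoter of Ptger1 (chr8:84392672-84393547), a stretch just past the end of Ptgs2 (chr1:149984065-149985729), and exons of Marchf8, Per1 and Hes7 in the windows of Alox5 and of Alox12b and Aloxe3. All 9 had a called peak below the list in at least 1 untreated library, and the Ptgs2 region in all 4. The untreated-only regions were introns of Pla2g4a (chr1:149769590-149769891) and Lpcat1 (chr13:73637880-73638272), and the Lpcat1 region was also the one specific to Rxra WT against cKO, with the same Rxra WT corpse libraries. The regions of the 2 called enzymes are shown. Each had a called peak below the list in 2 of 4 untreated libraries, so open here means listed in every BEL library. Capitals mark TGANTCA in both and, in Alox12b, AGGTCA and GGAATG on the minus strand (chr17:43903351-43903551 and chr11:69044894-69045094, mm39, plus strand).
Pla2g7 region, open with BEL: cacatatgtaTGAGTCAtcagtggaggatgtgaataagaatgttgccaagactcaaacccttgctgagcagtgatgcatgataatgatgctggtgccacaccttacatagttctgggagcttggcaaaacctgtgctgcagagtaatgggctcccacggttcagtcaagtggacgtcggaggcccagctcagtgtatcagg
Alox12b region, open with BEL: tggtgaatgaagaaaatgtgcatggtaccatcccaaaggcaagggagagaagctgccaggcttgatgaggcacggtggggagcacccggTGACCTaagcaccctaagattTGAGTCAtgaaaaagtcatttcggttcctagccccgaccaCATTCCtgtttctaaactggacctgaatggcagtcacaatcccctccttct
AP-1 stood in 6 of the 11 regions and in 35.9% of all regions of this comparison, and AGGTCA in 4 of 11 and in 11.3%.

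A comparison of Rxra WT HFSCs given corpses with Rxra WT HFSCs from CatVII skin was chosen after values had been seen. It reuses libraries of 4 of the comparisons above, and culture, feeders, corpses, genotype of the mice and batch all differ between the groups and cannot be told apart. In lists of 43758 peaks the share at members was 0.315, 0.331, 0.350 and 0.322% in culture and 0.402, 0.402, 0.379 and 0.384% in skin, without overlap (0.330 ± 0.0149% against 0.392 ± 0.0120%, SD, n = 4 each). Whether this is particular to the members was not tested. Of genes with a listed promoter peak here, 71.7 to 83.1% had one in culture libraries and 82.7 to 93.5% in skin libraries. The median difference in listed peaks was 0 over all genes tested and -0.75 over the members. Of 47 members, 4 had more listed peaks in every culture library (12.2% of all genes) and 9 had fewer (11.4%).

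Of the 9 lower ones, 2 were of the 10 lipoxygenase and leukotriene genes and 3 of the 11 secreted phospholipases A2. Aloxe3 had 5, 2, 6 and 4 listed peaks in culture and 11, 12, 12 and 13 in skin (-7.75, exact p = 0.0286, adjusted p = 0.121). Alox12e had 0, 0, 2 and 2 in culture and 5, 4, 6 and 5 in skin (-4). Pla2g2d had 0 in all 4 culture libraries and 5, 4, 2 and 3 in skin (-3.50). None of these overlapped between culture and skin, and the neighbour of Pla2g2d did not either. This was Pla2g2f, with 2 in each culture library and 8, 6, 3 and 5 in skin (-3.50). Pla2g12b had 0 in all 4 culture libraries and 2, 3, 3 and 5 in skin (-3.25). Lpcat2 had 10, 12, 10 and 12 in culture and 15, 15, 14 and 13 in skin (-3.25). The higher ones were 2 acyltransferases, Pla2g3 and Alox5ap. Pla2g3, a secreted form, had 3, 4, 3 and 3 in culture and 1 in each skin library (2.25). Lpcat4 had 6, 5, 5 and 5 in culture and 4, 4, 3 and 2 in skin (2). Lpcat1 had 4, 4, 3 and 4 in culture and 2 in each skin library (1.75). The smallest of these differences was that of Alox5ap, with 3 in each culture library and 1, 2, 2 and 2 in skin (1.25). The calls of Pla2g2d, Pla2g4b, Pla2g4e, Lpcat4 and Alox5ap were lost without skin library Rxra WT 1. Ptgs2 overlapped at this list length, with 2, 4, 4 and 3 in culture and 0, 1, 2 and 0 in skin.

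**Figure D5:**
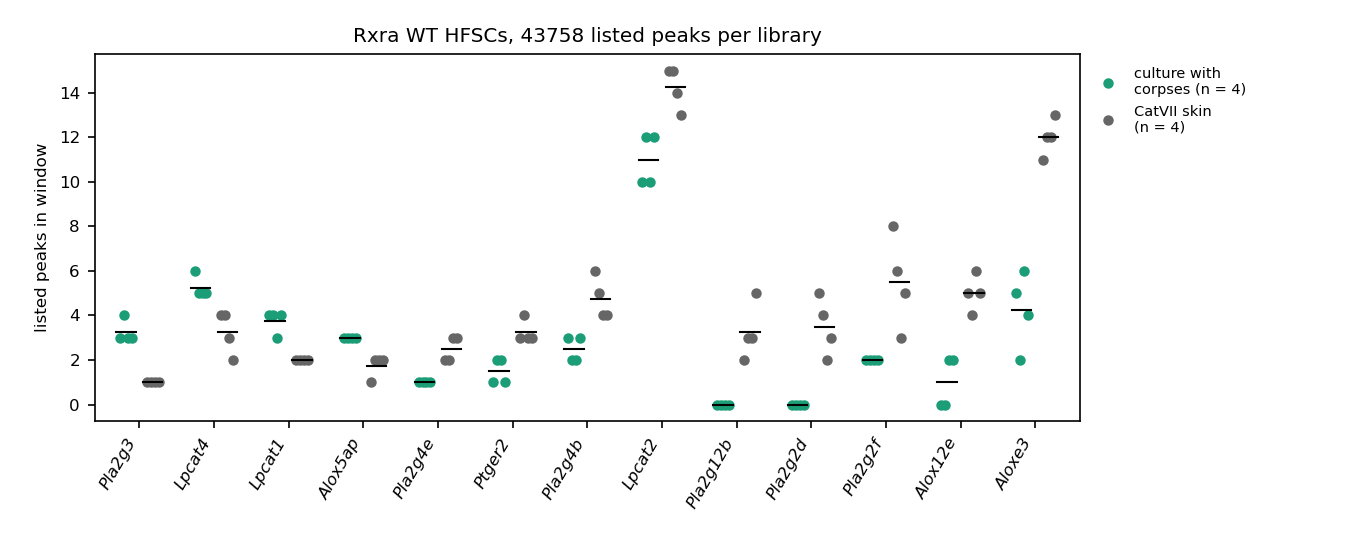
Listed peaks in the windows of the 13 members called between Rxra WT HFSCs cultured with corpses (green, left of each pair) and those from CatVII skin (grey), 4 libraries each, with means as bars and genes ordered by the difference. The genes were chosen because the groups do not overlap. Aloxe3 shows the widest gap, at 2 to 6 against 11 to 13.

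Promoter ranks were higher in every culture library for 0 of 31 members (3.66% of all genes) and lower for 7 (25.0%), and the median difference was -7.54 over members and -11.3 over all genes, so lower ranks in culture were general. Ltc4s had 0, 21.4, 47.3 and 15.9 in culture and 89.6, 84.7, 92.1 and 55.2 in skin (-59.3, exact p = 0.0286, adjusted p = 0.0995). Alox12e and Gpr132 had no listed promoter peak in culture and ranks of 48.3 to 61.0 and 28.9 to 58.0 in skin. Pla2g6 had 31.5, 49.4, 65.3 and 62.7 in culture and 92.5, 79.2, 87.4 and 87.1 in skin (-34.3). Pla2g15 had 10.9, 73.5, 39.9 and 47.1 in culture and 93.0, 89.5, 89.7 and 94.3 in skin (-48.8). The Pla2g15 call held under each of 13 alternative settings. Most of these leave out a library or pair libraries by replicate number, which cannot undo a call at an unchanged list length. Ptger4, with 88.0, 88.2, 83.5 and 79.0 in culture and 94.2, 96.4, 92.8 and 96.7 in skin, stayed near the top in both (-10.3). Of 163 regions at members, 27 were specific to culture (21.6% of all regions) and 20 to skin (13.7%). The skin regions included those between Pla2g2d and Pla2g5 and at the start of Mmp2 that were specific to Rxra WT against cKO in skin, with the same skin libraries, and neither had a called peak in any of the 4 culture libraries. The culture regions included one upstream of Gpr132 (chr12:112844668-112845011) that overlaps the region specific to cKO skin. Of the other pathway genes, 5 of 52 had more listed peaks in every culture library and 9 had fewer.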

How the data were processed

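By the study's methods the authors used BWA-MEM 0.7.18 for alignment to mm39 and SAMtools 1.17 to drop duplicates, and ran MACS3 3.0.0 in paired-end mode on each of the 34 libraries separately, with no control named. Each deposited list gives per peak the fold enrichment at the summit (a linear ratio within the library), the −log10 p and −log10 q, and the distance of the summit from the peak start; replicates were not pooled. No read counts were used here, so the differential count model of the study was not fitted and library depth is known only through the number of called peaks. In vivo libraries were barcoded in sets of 10 to 12 and culture libraries in 1 set of 27.

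Python 3.11.15 with numpy 2.4.6, pandas 2.3.3, scipy 1.17.1 and matplotlib 3.10.9 was used, with gene models from GENCODE mouse release M39. Samples were grouped by their labels, and 5 comparisons of 2 groups were made, with a further one (culture with corpses against CatVII skin) added after values had been seen. In each, the strongest peaks by −log10 p were taken, as many as the smallest library held on the autosomes and sex chromosomes (4111 over all 34 libraries). Peaks were assigned by summit to the gene body, 50 kb upstream and 5 kb downstream, or to promoters within 1 kb of a transcript start; peaks of the compared libraries sharing at least 1 bp were merged into regions. Exact permutation tests over samples, two-sided, were run on every protein-coding gene with a listed peak and adjusted by Benjamini-Hochberg over all of them; the steps were tested on simulated data. Motif letters were counted on both strands in 201 bases around each summit of the genome sequence. The alternatives were ranking by fold enrichment, all called peaks, lists of 0.5 times the length, only peaks with −log10 q of at least 3, a window of 10 kb, promoters of 500 bp, summits within 150 bp as the shared overlap, each library left out, and the replicate number as a block. Named with values were members with a group-specific region, members called (up to 8 per comparison by size), 12 core genes of the pathway, and those with the most and fewest peaks; further genes and regions were named after their values were seen. The members, gene lists and tests were chosen with earlier results of these data known. Calls near paralogues or repeats may be affected by how reads were placed.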

Additional observations from a re-analysis of the deposited data

Results flagged for a closer look

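In groups of 4 to 10 libraries, 12 of 102 sets of called values held a library far from the others by Dixon's criterion. Any set in which all values but 1 are equal meets this criterion, and the sets were chosen for not overlapping. The number was therefore not set against a chance rate. In the genotype comparison with corpses these were Rxra WT libraries with 3 listed peaks at Ptger2 where the others had 2, with 3 at Pla2g4b where the others had 4, and with 2 at Pla2g4f where the others had 3. With BEL they were BEL 1 at the Ptger1 promoter (rank 11.0, the others 5.47 to 6.24) and untreated corpses 2 at Pla2g4a (8 listed peaks, the others 9) and at the Lpcat3 promoter (rank 89.7, the others 96.6 to 97.1). Between culture and skin they were culture libraries at Pla2g3 (4 peaks, the others 3), Lpcat1 (3, the others 4), Lpcat4 (6, the others 5) and the Pla2g12a promoter (rank 1.91, the others 0), and skin libraries at Ptger2 (4, the others 3) and Alox5ap (1, the others 2). Of these sets, 9 are counts that differ by 1 peak.

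The genotype difference at Pla2g4f was 1.25 listed peaks with corpses and -1 in CatVII skin, 2.25 apart. The difference between them was not tested, since Pla2g4f was picked for its calls in opposite directions. The lists differed in length (72047 and 41317 peaks), the counts differed by 1 to 2 peaks, and with lists 0.5 times as long the difference with corpses was -0.25.

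Rxra WT libraries given AA, LPC and RA, which enter none of the tested comparisons, had 13 and 9 peaks at members among their 4111 strongest, against 2 and 8 in the Rxra WT medium libraries.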

How the results depend on the processing

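Under alternatives other than leaving out a library, 199 single-gene results were as reported, 119 were no longer called and 6 changed sign. The 199 include the replicate-number block, in which groups that do not overlap keep the same direction in every pair. Leaving out each library in turn gave 434, 10 and 1. Groups that do not overlap stay apart when a library is dropped, so only a changed list length could undo a call there. The 10 and the 1 all came with the smallest library of the comparison left out. Count calls were most sensitive to using all called peaks, where larger libraries simply hold more.

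With all called peaks the members called by count became 1 (CatVII with AnaVI, 4 reported), 0 (cKO with WT skin, 4), 45 (corpses with medium, 1), 1 (cKO with WT corpses, 9), 0 (BEL, 3) and 3 (culture with skin, 13). These were not always the members reported. For CatVII with AnaVI none of the reported calls was among them, and for culture with skin only that of Lpcat1. Member regions became 171 (corpses with medium, 1), 10 (cKO corpses, 16) and 1 (BEL, 11), and the share difference became -0.0210 (CatVII with AnaVI, -0.0790) and -0.0401 (culture with skin, -0.0623). With lists 0.5 times as long the counts were 1 in cKO skin and 3 in cKO corpses, the regions 2 (CatVII), 0 (corpses with medium), 4 (cKO corpses), 6 (BEL) and 18 (culture with skin, 47), and the ranks 4 (culture with skin, 7). Ranking by fold enrichment gave 2 regions in cKO skin, 2 in corpses with medium and 3 with BEL, rank calls of 0 in cKO skin, 1 in corpses with medium, 6 with BEL (13 reported) and 4 in culture with skin, and a share difference of -0.0394 in culture with skin. With the stricter q, CatVII with AnaVI kept 2 counts and 2 regions and corpses with medium had 3 counts. A 10 kb window gave counts of 2 (CatVII), 2 (cKO skin), 0 (corpses with medium) and 8 (culture with skin), regions of 2, 2, 0 and 23, and share differences of -0.0223, 0.00520 (corpses with medium, 0.151) and -0.0451 (culture with skin). Promoters of 500 bp gave 4 rank calls in culture with skin, and summits within 150 bp gave 2 regions in corpses with medium.

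Signs turned at Lpcat4 (8.5 with all called peaks, corpses with medium), Pla2g4e (0.25 with all called peaks, cKO corpses), Ptger4 and Pla2g4f (-0.25 with shorter lists, cKO corpses), Pla2g4a (1.0 with shorter lists, BEL) and, in culture with skin, Pla2g4e (2.5 with all called peaks, and -1.67 to 0.667 over libraries left out, the positive value without CatVII Rxra WT replicate 1). The cause was not tested.

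Leaving out each library in turn gave, for regions, counts, ranks and share difference, 5 to 22, 4 to 10, 0 to 3 and -0.0924 to -0.0413 (CatVII with AnaVI), 4 to 25, 4 to 8, 1 to 5 and -0.0424 to -0.0206 (cKO skin), 1 to 13, 1 to 8, 0 to 2 and 0.135 to 0.223 (corpses with medium), 17 to 28, 8 to 12, 3 to 6 and -0.0198 to -0.0106 (cKO corpses), 11 to 18, 3 to 5, 13 to 17 and 0.0259 to 0.0384 (BEL), and 50 to 66, 12 to 16, 7 to 10 and -0.0689 to -0.0398 (culture with skin). Fewer libraries have to be separated there, and the lists also grow when the smallest library is left out. These effects were not told apart.

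Libraries sharing a replicate number deviated together little (correlations -0.0381 to 0.0974, none over 0.1), so the numbers were not taken as pairs. In both genotype comparisons 2 of 3 cKO libraries correlated best with the Rxra WT library of their number. In the other comparisons this held for 0 or 1. Pairings by the stored peak names were not examined. With the replicate number as a block, the share differences were -0.0973 (CatVII with AnaVI), -0.0274 (cKO skin), 0.145 (corpses with medium), -0.0120 (cKO corpses), 0.0306 (BEL) and -0.0623 (culture with skin), and the smallest p was 0.125 to 0.5. Medium libraries set the shortest lists and so the least detectable differences.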
